A study of Mus musculus with 86 samples.

Results

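A set of 40 probes, of 20175 listed in a spatial profile of mouse back skin, was low in the leukocyte-marked epidermis before ultraviolet B (UVB) light and high 24 h after it, and stayed lower in the neighbouring keratinocyte-marked epidermis. The set was chosen by measured values. A member had a mean of at least 150 CPM (counts scaled to the library total) at 24 h in CD45 epidermis, at least 4 times its mean at 0 h there with a rise in each mouse, and at least 2 times its 24 h mean in PanCK epidermis. Those values are therefore described below without a test of a difference between groups. The first condition kept 344 probes, the fold kept 51, the rise in each mouse kept 48 and the ratio to PanCK kept 40.

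Skin came from female C57BL/6 mice, wild type and 12 to 16 weeks old, exposed once on the shaved back to 500 mJ/cm2 of UVB, with biopsies at 0, 6 and 24 h. Areas of the sections, called segments, were divided by staining into CD45 and PanCK (pan-cytokeratin) areas, and 85 of them fell into CD45 epidermis, PanCK epidermis, CD45 deep dermis, PanCK deep dermis and CD45 adipose. The replicate was the mouse, with mice 208, 210 and 219 in every group except adipose at 6 h, which lacked 208. All groups share the strain, sex and shaving, and no skin left without UVB was labelled at 6 or 24 h, so the time since UVB and the time since shaving, anaesthesia or a first biopsy cannot be told apart. Whether the numbered mice were each biopsied repeatedly is not stated beyond their shared numbers.

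CD45 is a phosphatase on the surface of leukocytes, and cytokeratins are the intermediate filament proteins of epithelial cells. The epidermis of untreated mice holds resident leukocytes, among them Langerhans cells, which sample antigen, and dendritic epidermal T cells. UVB is known to drive other leukocytes, such as neutrophils and monocytes, out of vessels into the dermis and then upward. A CD45 segment can hold RNA of every cell inside its outline, so more leukocytes and more RNA per leukocyte cannot be told apart in these sums. Probes stand under their identifiers, since the sources used here do not pair them with genes. For the same reason no role or sequence is given, and the CD45 and PanCK labels could not be checked against marker genes. Levels are CPM of the counts summed over a mouse's segments, and tests compare groups for 1 probe at a time. Members are also ranked by CPM and summed. Such ranks do not compare amounts of target between probes, and high probes weigh most in the sums. Identifiers of 6 members form 3 pairs of consecutive numbers (RTS0063532 with RTS0063533, RTS0064867 with RTS0064868, RTS0075935 with RTS0075936), and whether paired probes share a target is not given.

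In CD45 epidermis the 40 probes had a median of 33.3 CPM at 0 h (8.88 to 105), 47.8 CPM at 6 h and 358 CPM at 24 h (151 to 2065). The 24 h mean was 9.87 times the 0 h mean in the median (4.22 to 106). A set of 5000 scarce probes, called floor probes because their mean share of counts in the deep dermal and adipose sums was the lowest, averaged 25.7, 28.3 and 33.2 CPM at 0, 6 and 24 h in the same segments. At 24 h none of the 40 members lay under 2 times that floor (count 0), against 31 at 0 h. Summed over the 40, CPM in CD45 epidermis were 1541 ± 224 at 0 h, 2313 ± 192 at 6 h and 18305 ± 5089 at 24 h (SD, n = 3).

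**Figure D1:**
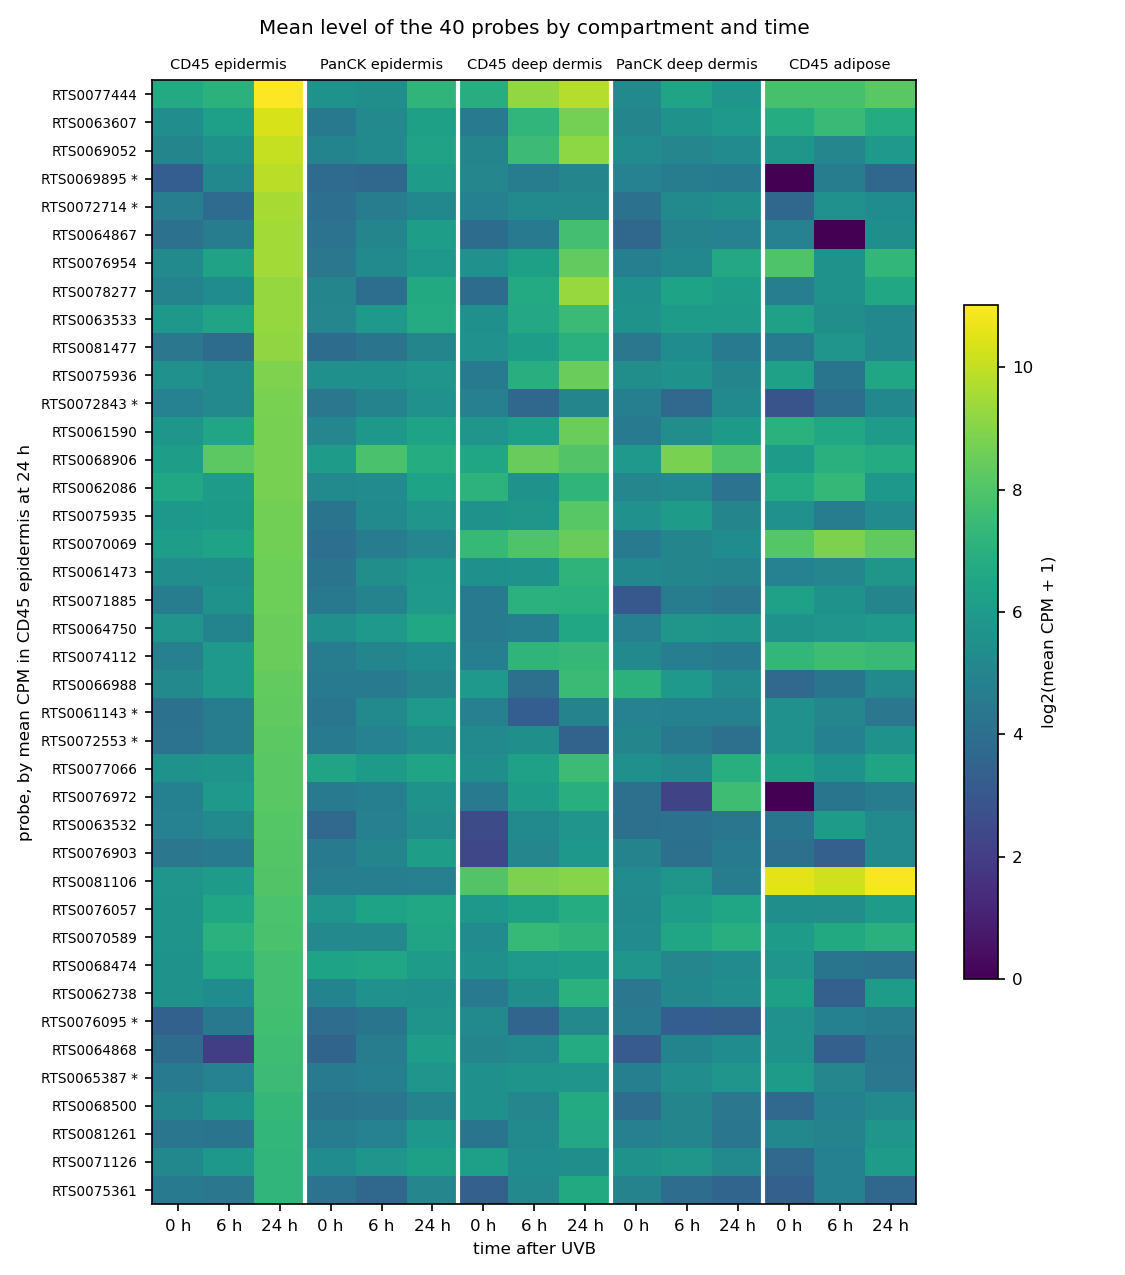
Mean CPM of the 40 probes (rows, highest 24 h mean in CD45 epidermis on top) in each compartment at 0, 6 and 24 h, as log2(mean CPM + 1) over 3 mice (2 in adipose at 6 h). Asterisks mark the 7 probes led by 1 mouse, and the bright 24 h column of CD45 epidermis is the one that chose the rows.

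The rise came late. Of each member's 24 h rise in CD45 epidermis, 2.45% was present at 6 h in the median, under 10% in 32 members and above 50% in 1. Mean levels at 6 h were above those at 0 h in 31 members, while every mouse was above its 0 h level at 6 h in 12. The lowest shares were those of RTS0062086, with 93.3 CPM at 0 h, 67.4 CPM at 6 h and 426 CPM at 24 h (-7.77%), and RTS0064750, with 53.3, 30.4 and 359 CPM (-7.49%). Both of these stood lower at 6 h than at 0 h in their means before the 24 h rise. RTS0068906 was the earliest member, with 64.4% of its rise present at 6 h, and RTS0070589 was next with 44.1%.

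RTS0077444 was the member with the highest 24 h mean. It had 49.8, 161 and 106 CPM at 0 h in mice 208, 210 and 219, 89.5, 184 and 124 CPM at 6 h, and 2175, 2783 and 1237 CPM at 24 h. All 3 mice were therefore low until 6 h and high at 24 h. RTS0063607 had 1429, 1833 and 641 CPM at 24 h, against 24.9, 27.5 and 70.6 CPM at 0 h. RTS0069052 had 747, 1409 and 1038 CPM at 24 h, against 33.2, 41.3 and 23.5 CPM at 0 h. In PanCK epidermis at 24 h these 3 probes averaged 146, 76.0 and 81.1 CPM. Of the other probes with the 10 highest means, RTS0064867 averaged 724 ± 136 CPM at 24 h, against 17.0 ± 14.9 CPM at 0 h, which was the widest fold (42.6) among members that no single mouse led. RTS0076954 averaged 724 ± 296 CPM, RTS0078277 averaged 622 ± 153 CPM, RTS0063533 averaged 619 ± 298 CPM and RTS0081477 averaged 586 ± 408 CPM at 24 h (SD, n = 3). Mouse 219 was the lowest of the 3 for RTS0063533 (275 CPM) and RTS0081477 (122 CPM).

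The remaining 2 of these 10, and 5 further members, were led by 1 mouse, though RTS0072714 reached 150 CPM in 2 mice. In 7 members the highest mouse at 24 h stood at least 4 times above the second. In each of the 7, that level came from 1 of the 6 CD45 epidermal segments. RTS0069895 had 1148 counts, 6910 CPM, in segment 2 of mouse 210, while its next highest segment had 80.3 CPM. RTS0072714 had 3571 CPM in segment 2 of mouse 208 and 982 CPM in segment 1 of mouse 219, and at most 39.0 CPM in the other 4. RTS0072843 (2356 CPM), RTS0061143 (1740 CPM) and RTS0072553 (1562 CPM) were each high in 1 segment of mouse 208, and RTS0076095 (1415 CPM, 36 counts) and RTS0065387 (1022 CPM, 26 counts) in segment 1 of mouse 219. Which segment was high differed between probes, and segment 2 of mouse 208 held 3 of the 7. Outside CD45 epidermis at 24 h, no segment of any compartment exceeded 197 CPM for these 7. What these segments held was not tested.

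The other 33 members were high in most segments. At 24 h, 31 of the 33 had at least 150 CPM in 4 or more of the 6 segments and 16 had it in all 6, whereas none of the 7 had it in 4 (count 0). Their highest mouse was 1.02 to 1.84 times the second. Summed over the 33, CPM in CD45 epidermis at 24 h were 16387, 18210 and 10872 in mice 208, 210 and 219, against 1186, 1569 and 1482 at 0 h, a ratio of the means of 10.7. All 3 conditions of the choice held within each mouse separately for 15 of the 40 members: the level in 23, the fold in 20 and the ratio to PanCK in 30. Segment totals in CD45 epidermis at 24 h ran between 25450 and 256121 counts, so that 1 count was worth 39.3 CPM in the shallowest segment and 3.90 CPM in the deepest.

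**Figure D2:**
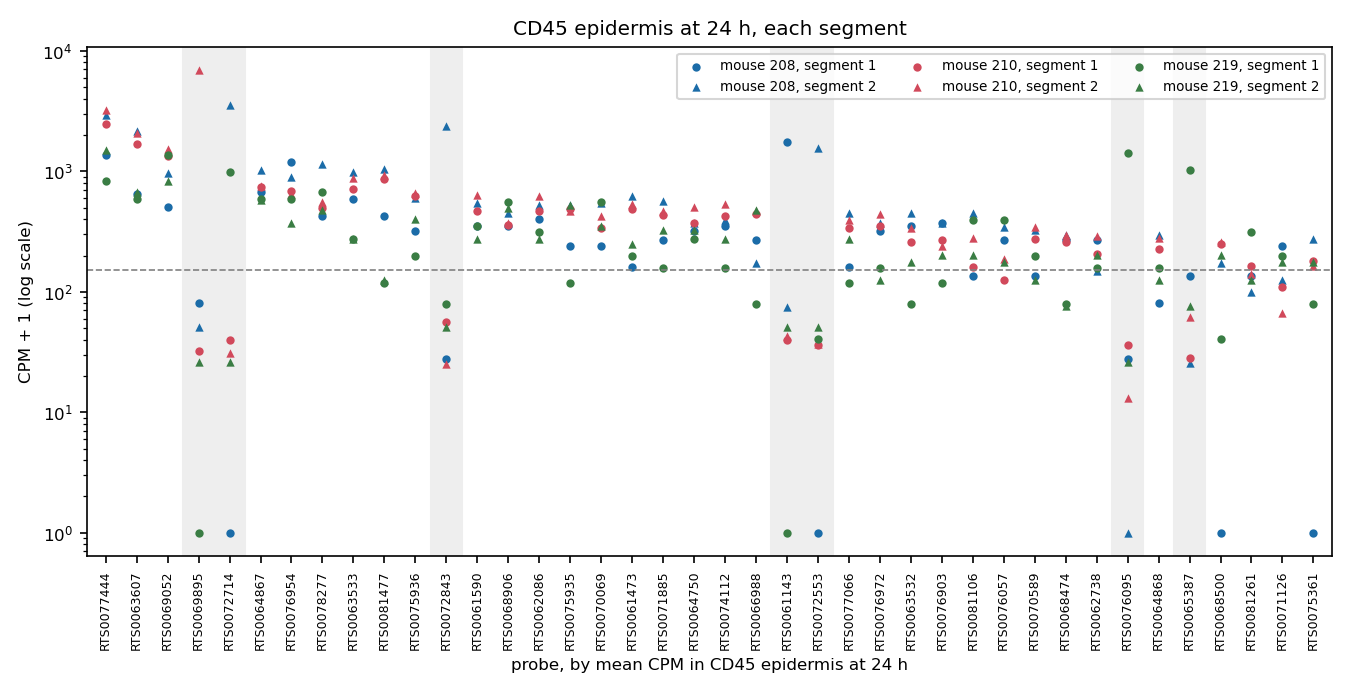
CPM + 1 (log scale) of each member in the 6 CD45 epidermal segments at 24 h, with colour for the mouse and shape for the segment; the dashed line is 150 CPM. Grey bands mark the 7 members led by 1 mouse, where the top segment lies between 1022 and 6910 CPM and most others lie near the floor.

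At the edges of the choice the values were close. RTS0075361 (151 CPM at 24 h) was just inside the level and RTS0076602 (147 CPM) just outside. RTS0062738 (4.22 times its 0 h mean) was just inside the fold and RTS0069266 (3.82 times) just outside. RTS0071126 (2.03 times its PanCK level) was just inside the ratio and RTS0067622 (1.76 times) just outside.

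In PanCK epidermis most members were near the floor at 24 h. Their median there was 58.3 CPM (27.1 to 146), against a floor mean of 32.9 CPM, and 24 of the 40 lay under 2 times the floor. The median ratio of CD45 to PanCK epidermis at 24 h was 6.04 (2.03 to 21.9), part of which the choice fixes. Means in PanCK epidermis at 24 h were above those at 0 h in 38 members, at least 2 times as high in 27 and at least 4 times in 3. The median fold was 2.34 in members and 1.43 over all 20175 probes, and the floor probes themselves averaged 32.9 CPM then, against 18.8 CPM before UVB. These 24 h values took part in the choice and were not tested.

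The 6 h change in PanCK epidermis did not take part. Of the 40 members, 18 passed the filter on low counts, and RTS0068906 alone was called higher, beside 0.329% of all 6076 probes tested that were called higher. It had 163, 259 and 268 CPM at 6 h in mice 208, 210 and 219, against 49.9, 69.2 and 76.9 CPM at 0 h, so the groups did not overlap. It changed by 1.89 on the log2 scale (SE 0.27), with an adjusted p of 0.00017 by the quasi-likelihood F test of edgeR, adjusted over all probes tested by Benjamini and Hochberg's method. At 24 h it stood at 113 ± 21.9 CPM in PanCK epidermis, below all 3 values at 6 h, while in CD45 epidermis it averaged 427 ± 82.0 CPM at 24 h and 300 ± 152 CPM at 6 h (SD, n = 3). That call was lost without mouse 210 (adjusted p = 0.0692, same edgeR test) and with limma on mean log values (adjusted p = 0.103).

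CD45 and PanCK epidermis could also be compared at 6 h without using the values of the choice. Of 9 members tested, 2 were called higher in CD45 areas, beside 1.61% of 1677 probes. The filter was that of a fit over all 5 compartments at 6 h and could be passed through CD45 sums. This count therefore only names the probes called. RTS0077444 had 89.5, 184 and 124 CPM in CD45 areas and 49.4, 31.1 and 46.7 CPM in PanCK areas of mice 208, 210 and 219 (log2 difference 1.85, SE 0.46; adjusted p = 0.0226). RTS0070589 averaged 129 ± 5.11 CPM in CD45 and 35.2 ± 14.5 CPM in PanCK areas (1.82, SE 0.46; adjusted p = 0.0281, both by edgeR, quasi-likelihood). Neither was called without mouse 208, without mouse 219, without the filter, under floor-probe scaling or with limma. Without mouse 210, RTS0077444 was not called (adjusted p = 0.737, edgeR) and RTS0070589 was not tested.

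Many members were also present in CD45 deep dermis at 24 h. Means there were at least 100 CPM in 27 of 40 members and at least 150 CPM in 16, with a median of 129 CPM (10.3 to 876) and 41.7% of the epidermal level in the median (3.46 to 196%). Only RTS0078277 (634 against 622 CPM in epidermis) and RTS0081106 (509 against 259 CPM) were at or above their CD45 epidermal mean, and 16 members were at 50% of it or more. The mean at 24 h was at least 4 times that at 0 h in 20 members, all among the 33, and the share over all probes was not counted. All 3 mice were above their own 0 h level in 23 of the 40, beside 13.6% of all probes. The lowest 24 h mouse lay above the highest 0 h mouse in 15 of the 40, beside 7.04% of all probes. The 7 members led by 1 epidermal segment lay between 10.3 and 52.2 CPM in CD45 deep dermis at 24 h, where the floor averaged 24.3 CPM. Not one of these 7 reached 2 times its 0 h mean there (count 0).

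The deep dermal level was uneven between mice. Summed over the 40 members, CD45 deep dermis held 5465, 14402 and 3814 CPM at 24 h in mice 208, 210 and 219, against 1981, 2284 and 1534 CPM at 0 h. Mouse 210 was the highest of the 3 in 36 of 40 members. Both of its segments were high, with summed levels of 16080 and 13525 CPM, against 5661 and 4913 CPM in mouse 208 and 4712 and 3027 CPM in mouse 219. In mouse 210, 13 members were higher in deep dermis than in CD45 epidermis and the median dermal level was 89.0% of the epidermal one. In mouse 208 these figures were 4 members and 28.8%, and in mouse 219 they were 2 members and 26.7%. Depth was also uneven: 1 count was worth 17.1, 7.75 and 24.4 CPM in the 3 dermal sums. In CD45 epidermis the same 3 mice were closer, and mouse 210 led in 21 members, 208 in 13 and 219 in 6. A cause for the high dermal level of mouse 210 was not tested.

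**Figure D3:**
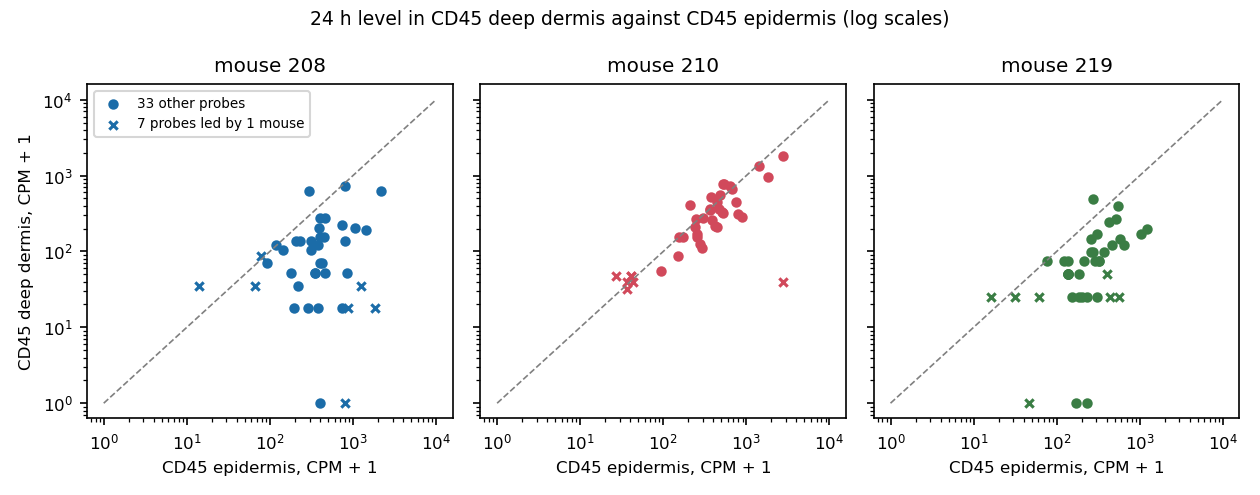
Level of each member at 24 h in CD45 deep dermis (vertical) against CD45 epidermis (horizontal), CPM + 1 on log scales, 1 panel per mouse; the dashed line is equality and crosses are the 7 members led by 1 mouse. In mouse 210, 13 members lie above the line, against 4 in mouse 208 and 2 in mouse 219.

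Tested on its own mice, the dermal rise was called for a few members. The filter, which asks for a minimum count in at least 3 of the dermal sums and can be passed through the 24 h sums, kept 8 of the 40, and 4 were called higher at 24 h than at 0 h, beside 2.72% of 624 probes. Because passing depends on being high, that count is given as a list of probes and not as support for the set. RTS0078277 had 737, 775 and 391 CPM at 24 h in mice 208, 210 and 219, against 0, 41.8 and 0 CPM at 0 h. These are 159 counts of 228347 at 24 h and 3 counts of 187775 at 0 h, a ratio of 43.6 (95% exact interval 14.6 to 214, counting error only), and every 24 h value lay far above every 0 h value. Its adjusted p was 0.000459 (log2 fold change 5.33, SE 0.60, which at so few 0 h counts depends on the prior count), and it was called under all 10 alternatives.

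RTS0063607 had 188, 961 and 122 CPM at 24 h, against 12.4, 55.7 and 0 CPM at 0 h (log2 fold change 4.15, SE 0.79; adjusted p = 0.0102). RTS0069052 had 223, 1317 and 171 CPM at 24 h, against 37.1, 55.7 and 0 CPM at 0 h (4.03, SE 0.86; adjusted p = 0.0186). RTS0077444 had 634, 1797 and 196 CPM at 24 h, against 74.3, 153 and 114 CPM at 0 h (2.90, SE 0.72; adjusted p = 0.0295, all by edgeR, quasi-likelihood). In these 3 probes the groups did not overlap, and mouse 210 was the highest at 24 h in each. Without mouse 210 the fold change of RTS0069052 was 2.59 and that of RTS0077444 was 1.80, and neither was called (adjusted p = 0.202 and 0.257, same edgeR test). RTS0063607 did not pass the filter without mouse 208 or mouse 210, so it could not be tested there, and its call was lost with limma (adjusted p = 0.0944). RTS0077444 was also not called without mouse 208 (adjusted p = 0.164, edgeR), where RTS0069052 did not pass the filter, and RTS0069052 and RTS0077444 were not called with limma on mean log values (adjusted p = 0.327 and 0.426).

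At 6 h, 2 members were higher in CD45 deep dermis than in CD45 epidermis. RTS0077444 had 638, 421 and 761 CPM in CD45 deep dermis at 6 h, against 89.5, 184 and 124 CPM in CD45 epidermis of the same mice at 6 h, so that every dermal value was above every epidermal one. RTS0081106 had 619.5, 755 and 0 CPM in deep dermis and 44.8, 91.9 and 62.0 CPM in epidermis at 6 h. Mouse 219, whose dermal sum at 6 h held only 17076 counts, thus went the other way for RTS0081106. Of 9 members tested these 2 were called higher in deep dermis, beside 3.82% of 1677 probes, by 1.64 (SE 0.39; adjusted p = 0.00886) and 2.61 (SE 0.69; adjusted p = 0.0183) by edgeR, quasi-likelihood. The call of RTS0077444 was lost without mouse 208 (adjusted p = 0.257) and with limma (0.35), and that of RTS0081106 without mouse 208 (0.168), without mouse 210 (0.392), with the DESeq2 test (0.175) and with limma (0.739). This comparison was added after the levels had been seen. Its filter could be passed through the CD45 deep dermal sums, so the count only names the 2 probes called. Mean 6 h levels were higher in CD45 deep dermis than in CD45 epidermis in 24 of 40 members, and the share over all probes was not counted.

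Against 0 h, no member was called in CD45 deep dermis at 6 h (count 0 of 8 tested with edgeR and with DESeq2, 4 and 5 at an unadjusted p under 0.05), beside 0.641% of probes called in either direction. Summed over the 33 members not led by 1 mouse, CPM there were 1869, 2006 and 1222 at 0 h in mice 208, 210 and 219. At 6 h the sums were 4280, 3774 and 3279, each above every sum at 0 h. In mice 208 and 219 they lay closer to the 24 h sums (5243 and 3643) than to those at 0 h. In mouse 210 the 6 h sum lay closer to 0 h (14116 at 24 h). The floor averaged 21.6 CPM at 0 h and 20.1 CPM at 6 h, and the sums were not tested. RTS0077444, at 638, 421 and 761 CPM at 6 h against 74.3, 153 and 114 CPM at 0 h, did not overlap between the times but had an adjusted p of 0.248 (log2 fold change 2.15, SE 0.76, edgeR). Between 6 h and 24 h, RTS0078277 alone was called (1 of 8, beside 0.16% of probes), with 737, 775 and 391 CPM at 24 h against 93.9, 109 and 117 CPM at 6 h (3.09, SE 0.46; adjusted p = 0.0144, edgeR, quasi-likelihood). That call was lost without mouse 208 or 210, without the filter and with limma. The filter was that of the 24 h against 0 h test, so this count too only names the probe called. For RTS0077444 the change between 6 h and 24 h was 0.75 (SE 0.64; adjusted p = 0.681, edgeR), with mouse 210 higher at 24 h and mouse 219 lower.

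**Figure D4:**
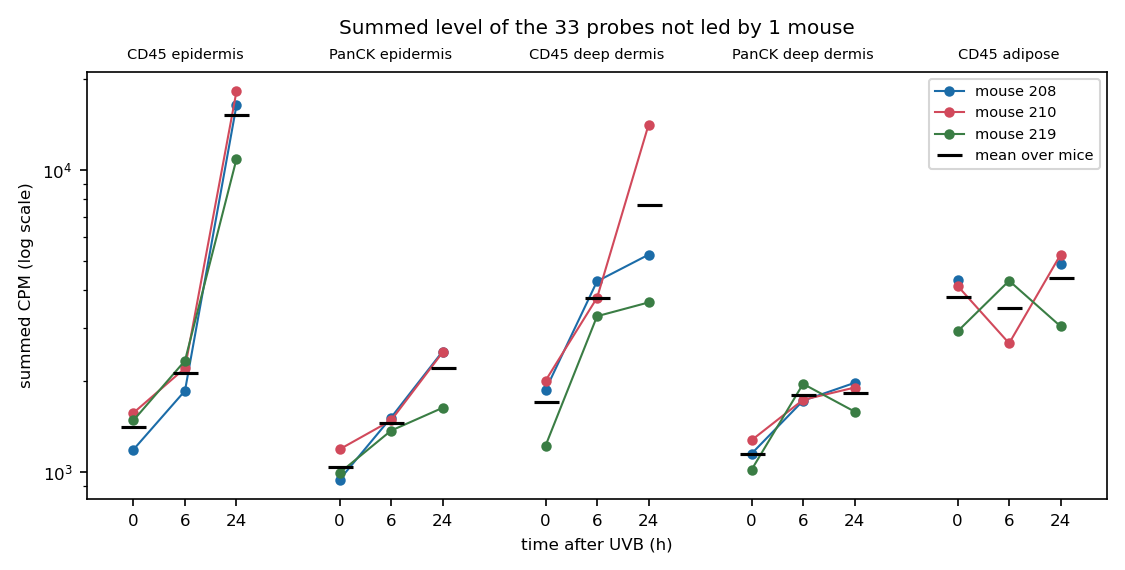
Summed CPM (log scale) of the 33 members not led by 1 mouse, by compartment and time, with a line per mouse and a black bar for the mean; mouse 208 has no adipose sum at 6 h. At 24 h CD45 epidermis held 16387, 18210 and 10872 CPM in mice 208, 210 and 219, and CD45 deep dermis 5243, 14116 and 3643 CPM.

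In PanCK deep dermis, which the labels give as the PanCK-positive areas of that layer, 25 of the 40 members lay under 2 times the floor at 24 h. The median of the 40 was then 36.9 CPM (9.18 to 241), against a floor mean of 20.0 CPM, and 4 members reached 100 CPM. Summed over the 40, CPM were 1334, 1443 and 1201 at 0 h in mice 208, 210 and 219, and 1941, 1927 and 2061 at 6 h. At 24 h they were 2245, 2082 and 1757, above all 3 sums at 0 h. The floor averaged 20.2, 20.3 and 20.0 CPM at 0, 6 and 24 h, and the sums were not tested. The lowest 24 h mouse lay above the highest 0 h mouse in 9 of 40 members, beside 7.78% of all probes. RTS0068906 had the highest mean there, and RTS0076972 came next with 374, 84.1 and 122 CPM at 24 h in mice 208, 210 and 219, against 17.6, 13.0 and 16.7 CPM at 0 h. RTS0076972 did not overlap between the times and was not tested, since it did not pass the filter.

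At 24 h against 0 h in PanCK deep dermis, 2 members were tested and they moved in opposite directions. The filter of this fit could be passed through the time at which a probe was high. The counts from this fit, here and at 6 h, therefore only name the probes called. RTS0068906 was higher (1 of 2, beside 7.96% of 1898 probes called higher), with 272, 279 and 173 CPM at 24 h against 52.7, 58.5 and 66.7 CPM at 0 h (log2 fold change 1.85, SE 0.40; adjusted p = 0.00258). RTS0066988 was lower (1 of 2, beside 14.6% called lower), with 34.0, 57.8 and 20.3 CPM at 24 h against 105, 169 and 133 CPM at 0 h, a change of -1.99 (SE 0.44; adjusted p = 0.00307, both by edgeR, quasi-likelihood). In CD45 epidermis RTS0066988 was, by the choice, higher at 24 h (329 ± 115 CPM) than at 0 h (35.2 ± 30.7 CPM; SD, n = 3). Without mouse 210 the adjusted p of RTS0068906 was 0.0592 in the same edgeR test and RTS0066988 did not pass the filter, and with limma the adjusted p of RTS0066988 was 0.16.

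RTS0068906 was the early member in PanCK deep dermis as well. It had 394, 303 and 644 CPM at 6 h against 52.7, 58.5 and 66.7 CPM at 0 h, called under the main setting and all 10 alternatives (2.72, SE 0.38; adjusted p = 0.000566, edgeR, quasi-likelihood; 1 of 2 members, beside 1.63% of probes called higher). Its 24 h mean was lower than its 6 h mean in both PanCK compartments (113 and 230 CPM in epidermis, 241 and 447 CPM in deep dermis). Between 6 h and 24 h in PanCK deep dermis no member was called (count 0 of 2 with edgeR and with DESeq2, each with 1 at an unadjusted p under 0.05), beside 10.2% of probes. In CD45 deep dermis RTS0068906 averaged 89.4, 348 and 262 CPM at 0, 6 and 24 h, and its 24 h change of 1.43 (SE 0.48) was not called (adjusted p = 0.0871, edgeR).

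CD45 and PanCK areas were also compared in the deep dermis, whose values the choice did not use. Over all 40 members at 24 h, CD45 deep dermis exceeded PanCK deep dermis in 30, 39 and 26 members in mice 208, 210 and 219. The share over all probes was not counted. The median probe also stood higher in CD45 (36.2 CPM) than in PanCK deep dermis (30.9 CPM) at 24 h, so these counts are not read as a bias of the set. The filter was that of a fit over all 5 compartments and could be passed through the CD45 epidermal sums at 24 h, by which the members were chosen, and 33 passed it. Of these, 23 were called higher in CD45 than in PanCK deep dermis, beside 9.14% of 1751 probes called higher. That count names the probes called and is not given as support for a bias of the set. RTS0077444 had 634, 1797 and 196 CPM in CD45 areas, against 51.0, 78.9 and 30.5 CPM in PanCK areas of mice 208, 210 and 219 (4.26, SE 0.46; adjusted p = 8.56e-09). RTS0078277 had 737, 775 and 391 CPM, against 68.0, 94.6 and 50.8 CPM (3.42, SE 0.43; adjusted p = 1.07e-07). RTS0070069 had 274, 519 and 244 CPM, against 51.0, 57.8 and 10.2 CPM (3.44, SE 0.47; adjusted p = 5.42e-07, all by edgeR, quasi-likelihood). Every CD45 value of these 3 exceeded every PanCK value.

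RTS0081106, RTS0069052, RTS0075936, RTS0075935 and RTS0063607 complete the 8 with the smallest p, with differences between 3.01 and 4.45. Without mouse 210, 6 members were called higher in CD45 areas and 1, RTS0076972, was called lower. The number called higher was 6 with limma, 15 of 40 without the filter and 14 under floor-probe scaling. RTS0077444, RTS0081106, RTS0078277, RTS0070069 and RTS0075935 were called under all 10 alternatives.

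The same 2 kinds of deep dermal area were compared before UVB. The filter of that fit could be passed through the CD45 deep dermal or adipose sums, so the count called only names the probes. At 0 h, 3 of 4 members tested were higher in CD45 deep dermis, beside 8.78% of 1709 probes. They were RTS0081106 (2.90, SE 0.40; adjusted p = 3.35e-05), RTS0070069 (3.14, SE 0.57; adjusted p = 0.000729) and RTS0062086 (2.51, SE 0.72; adjusted p = 0.0205, all by edgeR, quasi-likelihood). RTS0070069 had 260, 125 and 114 CPM in CD45 areas and 8.78, 39.0 and 16.7 CPM in PanCK areas at 0 h. For RTS0062086 the CD45 values were 297, 55.7 and 56.8 CPM, with mouse 208 far above the other two. The call of RTS0070069 was lost without mouse 208 (adjusted p = 0.0784, edgeR), and that of RTS0062086 without mouse 210 (0.0723), without mouse 219 (0.101), without the filter (0.0944) and with limma (0.522), while without mouse 208 it was not tested. At 6 h the filter could be passed in the same way. There 5 of 9 members were called higher in CD45 areas, beside 8.35% of 1677 probes, a count that again only names the probes called. They were RTS0077444 (2.71), RTS0070069 (3.04), RTS0081106 (3.55), RTS0074112 (2.64) and RTS0069052 (2.62, each a log2 difference with an SE between 0.38 and 0.67). Without mouse 210 only RTS0077444 was called, and with limma none was (count 0 of 9, none at an unadjusted p under 0.05). RTS0069052 was also not called without mouse 208 (adjusted p = 0.115, edgeR).

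The difference between the time courses of the 2 kinds of deep dermal area was tested directly. Of 14 members tested, 2 had a higher 24 h change in CD45 than in PanCK areas, beside 0.688% of 1598 probes. The filter of this fit could be passed through the CD45 deep dermal sums at 24 h alone. That count therefore names the probes called and is not given as support for the set. They were RTS0078277 (4.69, SE 0.85; adjusted p = 0.0062) and RTS0069052 (4.10, SE 0.86; adjusted p = 0.0229, edgeR, quasi-likelihood). RTS0069052 stayed at 17.0, 68.3 and 30.5 CPM in PanCK deep dermis at 24 h, against 43.9, 39.0 and 33.4 CPM at 0 h. Its call was lost in 6 of 10 alternatives, among them each omission of a mouse, and that of RTS0078277 in 2 (without mouse 219 and with limma). For the 6 h change no member was called (count 0 of 14 with edgeR and with DESeq2, 3 and 1 at an unadjusted p under 0.05), and 0% of all probes were.

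**Figure D5:**
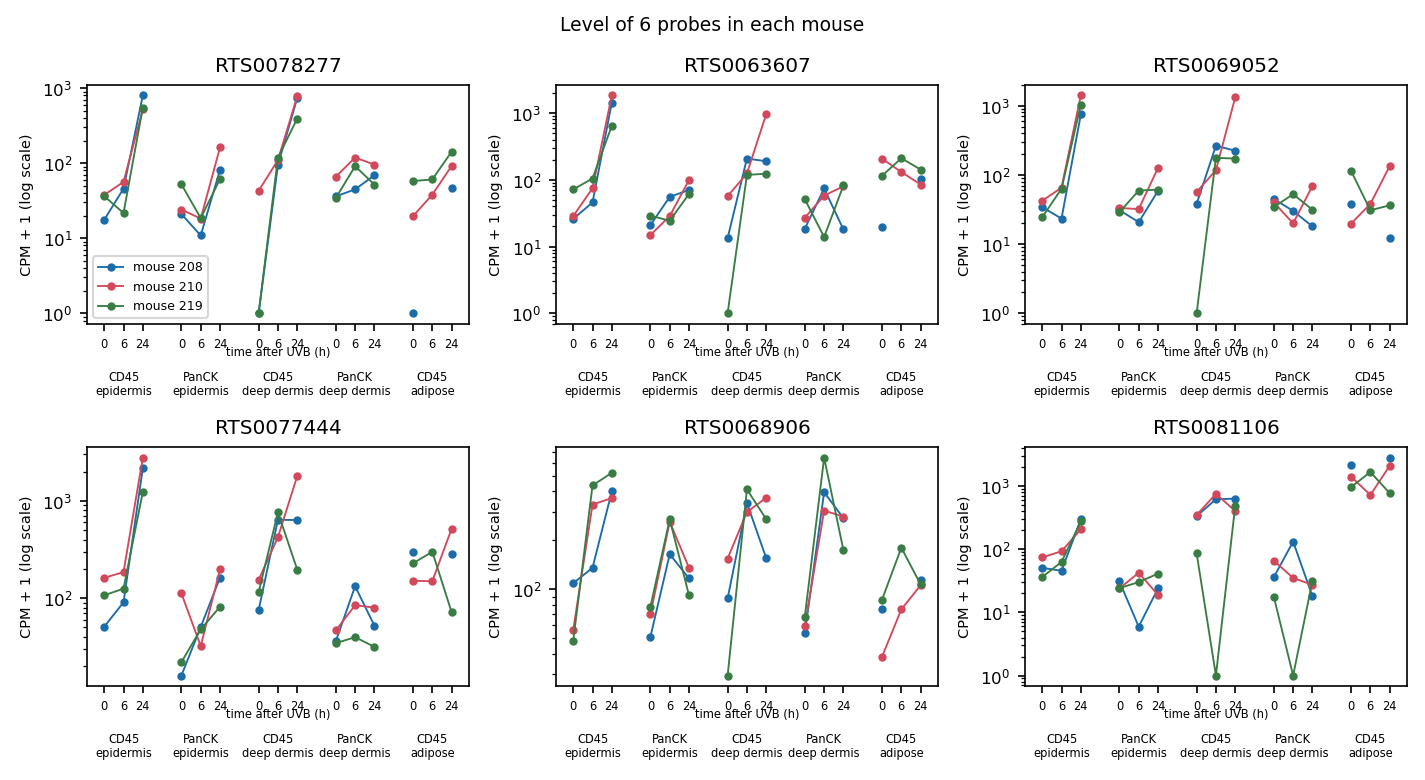
CPM + 1 (log scale) of 6 members in each mouse at 0, 6 and 24 h in the 5 compartments: the 4 called higher in CD45 deep dermis at 24 h, the early RTS0068906, and RTS0081106, which was highest in adipose. Mouse 208 has no adipose value at 6 h, and its points there are not joined.

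In CD45 adipose the members' summed level and the 7 members tested showed little change with time. The median of the 40 was 51.7 CPM at 24 h (11.6 to 1900), with 8 members at 100 CPM or more at 24 h and 8 at 0 h. At 24 h, 18 of the 40 lay under 2 times the floor, where a change could hardly be seen. RTS0081106 alone averaged 1505 CPM at 0 h, 1197 CPM at 6 h and 1900 CPM at 24 h, a large part of the sums. Summed CPM were 4015 ± 751 (SD, n = 3) at 0 h, 3691 ± 1027 (SD, n = 2) at 6 h and 4592 ± 1152 (SD, n = 3) at 24 h, and the floor probes averaged 19.7, 18.6 and 21.6 CPM. The lowest 24 h mouse lay above the highest 0 h mouse in 5 of 40 members, beside 4.74% of all probes. No member was called at 24 h against 0 h (count 0 of 7 with edgeR and with DESeq2, none at an unadjusted p under 0.05), beside 2.38% of 839 probes. For 6 h against 0 h and for 24 h against 6 h, edgeR and DESeq2 called none of the 7 either (count 0, with 1 and 0 at an unadjusted p under 0.05 in each), beside 0.119% of probes in each comparison.

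RTS0081106 stood apart from the other members by its high level in adipose at every time. It had 2131, 1421 and 965 CPM there at 0 h in mice 208, 210 and 219, 722 and 1671 CPM at 6 h in mice 210 and 219, and 2828, 2095 and 776 CPM at 24 h. Its values at 0 h and 24 h overlapped widely (log2 fold change 0.44, SE 0.34; adjusted p = 0.784, edgeR). It was higher in adipose than in CD45 deep dermis at 0 h (2.30, SE 0.30; adjusted p = 4.06e-05; 1 of 4 members, beside 2.69% of probes called higher) and at 24 h (1.90, SE 0.34; adjusted p = 6.13e-05; 1 of 33, beside 4.85%) by edgeR, quasi-likelihood. Both calls were lost with limma (adjusted p = 0.0574 and 0.286). The filters of these fits could be passed through the adipose sums, so these counts only name the probe called. In CD45 epidermis RTS0081106 had 296, 206 and 275 CPM at 24 h, against 49.8, 73.4 and 35.3 CPM at 0 h, and in PanCK epidermis it stayed between 17.9 and 40.3 CPM at 24 h. Its order by mean level at 24 h was adipose, CD45 deep dermis, CD45 epidermis, and then both PanCK compartments near the floor. RTS0070069 differed less between these areas and in the reverse order of means, with 315 ± 59.0 CPM in adipose, 346 ± 151 CPM in CD45 deep dermis and 400 ± 26.7 CPM in CD45 epidermis at 24 h (SD, n = 3).

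For 16 of 33 members tested the 24 h level was lower in adipose than in CD45 deep dermis, beside 3.88% of 1751 probes called lower. The filter was the same as for CD45 against PanCK deep dermis, so this count too only names the probes called. It was 3 without mouse 210, 2 with limma, 6 under floor-probe scaling, 7 without the filter and 10 with the DESeq2 test. RTS0078277 was called under all 10 alternatives and RTS0069052 under all but limma (adjusted p = 0.243). RTS0078277 had 45.1, 90.8 and 141 CPM in adipose, against 737, 775 and 391 CPM in deep dermis (-3.03, SE 0.45; adjusted p = 4.07e-06). RTS0069052 had 11.3, 133 and 35.3 CPM in adipose, against 223, 1317 and 171 CPM in deep dermis (-3.09, SE 0.49; adjusted p = 1.07e-05, both by edgeR, quasi-likelihood). RTS0075935, RTS0061590, RTS0075361, RTS0064868 and RTS0075936 were lower by log2 differences between -3.13 and -2.07. At 6 h none of 9 members was called between these compartments (count 0 with edgeR and with DESeq2, 5 and 3 at an unadjusted p under 0.05), beside 3.28% of probes in either direction.

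In the no template control, which held 19 counts in all, none of the 40 members was counted (count 0).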

How the data were processed

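Each deposited file lists whole-number counts for the probe identifiers of 1 segment. Per the file headers, the authors used version 2.3.3.10 of the GeoMx NGS Pipeline; panel, aligner and build: not given in the sources used here. Nothing in the values or headers records a normalization of these counts by the authors. Segment totals ran between 4244 and 256121. Segments of 1 mouse, compartment and time were added up (44 sums) and scaled to CPM for levels.

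Tests used edgeR 4.0.16 (R 4.3.3, limma 3.58.1) on the sums: TMM scaling, filterByExpr at a minimum count of 10, the quasi-likelihood F test with the mouse as a block, and Benjamini-Hochberg adjustment over all probes tested, called under 0.05. Each compartment was fitted over its 3 times, compartments were compared within a time over all of them, and the difference of time courses used CD45 and PanCK deep dermis with the biopsy as a block. Standard errors are the fold change divided by the root of F. The same mouse numbers recur at every time in the labels, which is where the pairing comes from. As a check, deviations from group means of same-numbered sums correlated with a median r of 0.0258, 0.00691, 0.125 and 0.0595 in PanCK epidermis, CD45 deep dermis, PanCK deep dermis and adipose. Scripts were tested on simulated data.

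The members and lists were chosen with earlier results of these data known. Named members are the 10 with the highest 24 h mean in CD45 epidermis, those called in a listed comparison (the 8 with the smallest p where more), the extremes of the 6 h share, the highest in each other CD45 or PanCK deep compartment, and the neighbours of each threshold. Alternatives were DESeq2's size factors and test (DESeq2 1.42.0), scaling to the floor probes, no filter, no block, each mouse left out, shallow segments left out (1 under 4756.3 counts) and limma on mean log2(CPM + 1) over segments. A median over segments in the choice of members was added after seeing the data.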

Additional observations from a re-analysis of the deposited data

Results flagged for a closer look

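At 24 h, 10 of 80 sets of 6 segments (40 members in CD45 epidermis and in CD45 deep dermis) had 1 segment beyond the 95% critical value of Dixon's test. Chance alone flags about 1 set in 20 where sets are not chosen by their values. The members were chosen by their CD45 epidermal means at 24 h, which 1 high segment can raise. That rate is therefore no measure for the epidermal sets, and the flags are given as a list. The segments of a mouse are not independent of each other. In CD45 epidermis RTS0069895 (6910 CPM) was high in segment 2 of mouse 210. RTS0072714 (3571 CPM), RTS0072843 (2356 CPM), RTS0072553 (1562 CPM) and RTS0078277 (1141 CPM) were high in segment 2 of mouse 208, and RTS0061143 (1740 CPM) in its segment 1. RTS0076095 (1415 CPM), RTS0065387 (1022 CPM) and RTS0081261 (314 CPM) were high in segment 1 of mouse 219. In their other 5 segments RTS0078277 had 428 to 668 CPM and RTS0081261 had 99.2 to 164 CPM, unlike the 7 members led by 1 mouse. In CD45 deep dermis RTS0081106 had 1245 CPM in segment 2 of mouse 208, which held 15265 counts in all.

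The change at 24 h differed between CD45 and PanCK deep dermis for RTS0078277 (a log2 difference of 4.69) and RTS0069052 (4.10), by the interaction test given with those members.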

How the results depend on the processing

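In CD45 deep dermis, 1 count was worth up to 65.5 CPM in a segment at 24 h, so low members could not be followed there. Members called, with each mouse left out in turn, numbered 0 to 1 for PanCK epidermis at 6 h against 0 h, 0 to 0 for CD45 against PanCK epidermis at 6 h, 1 to 6 for CD45 deep dermis at 24 h against 0 h, 0 to 1 there at 24 h against 6 h, 0 to 4 for PanCK deep dermis at 24 h, 0 to 1 for adipose at 24 h and 7 to 23 for CD45 against PanCK deep dermis at 24 h. Of the 7, which left out mouse 210, 6 were higher and 1, RTS0076972, was lower in CD45 areas, whereas the 23 were all higher. With limma on mean log2(CPM + 1) the same 7 counts were 0, 0, 1, 0, 1, 0 and 6. Scaling to the floor probes gave 0 for CD45 against PanCK epidermis at 6 h and 14 for CD45 against PanCK deep dermis at 24 h. Without the filter those counts were 0 and 15, and the count for CD45 deep dermis at 24 h against 6 h was 0.

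Without the replicate block the counts were 1, 2, 4, 1, 2, 0 and 23, as with the block. Omission of the shallow segment and DESeq2's size factors also moved none of the 7 counts by over 1.5 times. Of 626 repeats of the 64 single calls, 457 stayed called, 168 kept their direction without a call and 1 reversed: RTS0064868 in CD45 against PanCK deep dermis at 24 h had -0.46 with limma. The cause was not tested. In 9 of the 64 calls every alternative that could be fitted kept the call. The choice itself gave 30 to 56 members under 9 other settings, the highest without mouse 210, and 32 with the median over segments, of which 31 were among the 40. Membership moved more than these sizes show. Of the 40, 31 stayed without mouse 208 (38 chosen), 34 without mouse 210 and 35 without mouse 219 (42 chosen). With CPM scaled by TMM, 30 of the 40 stayed.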
